A study of Mus musculus with 12 samples.

Results

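The question addressed was how the effect of deleting PPARγ in hepatocytes differed between 2 and 5 months on a fast-food diet (FFD). All 12 liver libraries of the series entered 1 fit, 3 in each of 4 groups, wild-type and PPARγ-KO at 2 months and wild-type and PPARγ-KO at 5 months. Per the study's methods, all mice were male, carried PPARγ flox/flox alleles and received an adeno-associated virus of serotype 8 by intraperitoneal injection at 8 weeks of age. The virus expressed Cre in the PPARγ-KO mice (AAV8.TBG.PI.Cre.rBG) and eGFP in their littermates called wild-type (AAV8.TBG.PI.eGFP.WPRE.bGH), so both genotypes had floxed alleles and a viral transgene. The TBG promoter limits both transgenes to hepatocytes, and the other cells of a PPARγ-KO liver keep the intact gene. All mice were fed FFD, a diet rich in fat, cholesterol and sugar, and RNA was taken from whole liver. The quantity described is the log2 ratio of PPARγ-KO over wild-type at 5 months minus the same ratio at 2 months, called the difference below. A negative difference means that the knockout had a lower ratio at 5 than at 2 months. Gene coordinates are those of the count tables (mm10).

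PPARγ is a nuclear receptor that binds fatty acid-derived ligands and drives lipid storage genes, and its amount rises in hepatocytes of fatty livers. The whole liver also holds Kupffer cells, the resident macrophages of the sinusoids, which are recognized by the lectin receptor Clec4f, the complement receptor Vsig4 and the phosphatidylserine receptor Timd4. In steatotic livers monocyte-derived and lipid-associated macrophages, marked by Trem2 and Gpnmb, join them. Hepatocytes answer cytokines with the acute phase response, in which secreted plasma proteins increase, and sterol shortage with the SREBP program of cholesterol synthesis.

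The libraries held 16367775 to 27452284 counts each. Of 54532 genes in the tables, 28715 had a count in any library and 15127 passed the filter on low counts and were tested. Wild-type replicates 2 and 3 at 5 months were closer to each other than any other pair of replicates, with a chi-square per gene of 2.44 where counting noise alone gives about 1 and the other pairs gave 9.4 to 31.7, so results are also given with them summed into 1 sample. Hepatocyte markers were abundant in every library (albumin 33865 to 63550 CPM, counts scaled by the library total). The labels do not say whether libraries came from separate litters or batches, so the p-values measure the spread between these samples only. In whole liver RNA, fewer cells of a type and less RNA per cell cannot be told apart.

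The targeted gene was measured first. Pparg (ENSMUSG00000000440, chr6:115360951-115490399) had 38.8, 41.4 and 37.7 CPM in wild-type and 50.5, 66.5 and 52.1 CPM in PPARγ-KO livers at 2 months, and 36.9, 41.4 and 37.1 CPM in wild-type and 86.6, 93 and 75.1 CPM in PPARγ-KO livers at 5 months. The libraries labelled PPARγ-KO therefore had more Pparg counts than wild-type at both times, without overlap, with log2 ratios of 0.52 at 2 months (adjusted p = 0.00621) and 1.14 at 5 months (adjusted p = 1.45e-05). These are counts over the whole gene, in which the floxed exons cannot be told from the rest, so they do not check the labels. The difference was 0.62 ± 0.145 (SE, adjusted p = 0.0432), and this call was made in 3 of the 12 leave-one-out fits (highest adjusted p = 0.122, without wild-type 5-month replicate 3), a fit being made without each library in turn. Genes of lipid storage that PPARγ is known to drive were lower in PPARγ-KO livers at both times. The lipid droplet proteins Cidec and Plin4 had ratios of -3.85 and -2.71 and of -3.54 and -2.48 at 2 and 5 months, and their differences were not called, at 1.15 (adjusted p = 0.191) and 1.06 (adjusted p = 0.353). The knockout effect on these genes was thus present at both times.

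For 238 of the 15127 genes tested (1.57%) the knockout effect differed between 5 and 2 months by edgeR's quasi-likelihood test at a Benjamini-Hochberg adjusted p below 0.05. The difference was positive for 100 genes (0.661%) and negative for 138 (0.912%). For comparison, 1153 genes (7.62%) differed between PPARγ-KO and wild-type at 2 months, 558 higher (3.69%) and 595 lower (3.93%), and 2039 (13.5%) at 5 months, 915 higher (6.05%) and 1124 lower (7.43%), in the same fit. The 2 times formed the larger contrast. In wild-type livers 7377 genes (48.8%) were called between 5 and 2 months (3720 higher, 24.6%, and 3657 lower, 24.2%). In PPARγ-KO livers 6391 (42.2%) were called (3281 higher, 21.7%, and 3110 lower, 20.6%). Mice at 5 months were also older and further from the viral injection. Whether the libraries of the 2 times were prepared together is not stated, so time on diet, age and batch cannot be told apart here. Over all genes tested 49.2% of the differences were positive and 50.8% negative, and 2250 genes (14.9%) had an unadjusted p below 0.05. The ratio had opposite signs at the 2 times for 175 of the 238 genes, 74 with a positive and 101 with a negative difference. For 57 genes it kept its sign and was further from 0 at 5 months, and for 6 genes it kept its sign and was nearer to 0. Most reversals rested on an effect called at 1 time only, 109 at 5 months and 44 at 2 months, while 19 were called at both times and 3 at neither. Of all 238 genes, 162 had a knockout effect called at 5 months only and 48 at 2 months only. In the same 12 libraries, the ranges of the 9 possible PPARγ-KO over wild-type ratios at each time did not overlap for 1158 genes (7.66%), and these included all 238. Because the ranges and the test rest on the same values, this adds no support to the calls.

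The number of calls depended on single libraries. Between 83 and 567 genes were called when 1 library was left out, with 567 without wild-type 2-month replicate 1, which lay furthest from its group, and 83 and 96 without wild-type 5-month replicates 3 and 2. Fewer were also called without PPARγ-KO 5-month replicate 3 (117) and replicate 2 (144) and without PPARγ-KO 2-month replicate 1 (147). With wild-type 5-month replicates 2 and 3 summed, 106 genes were called, all of them among the 238. With the replicate number as a block at 2 months, where same-numbered libraries deviated together, 375 genes were called, 235 of them among the 238. No gene of the 238 that was called under another setting had the opposite sign there. Where a call named below was lost with a library left out, this is given beside it, as the number of the 12 leave-one-out fits, each without 1 library, that made the call or as the libraries whose absence removed it.

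**Figure D1:**
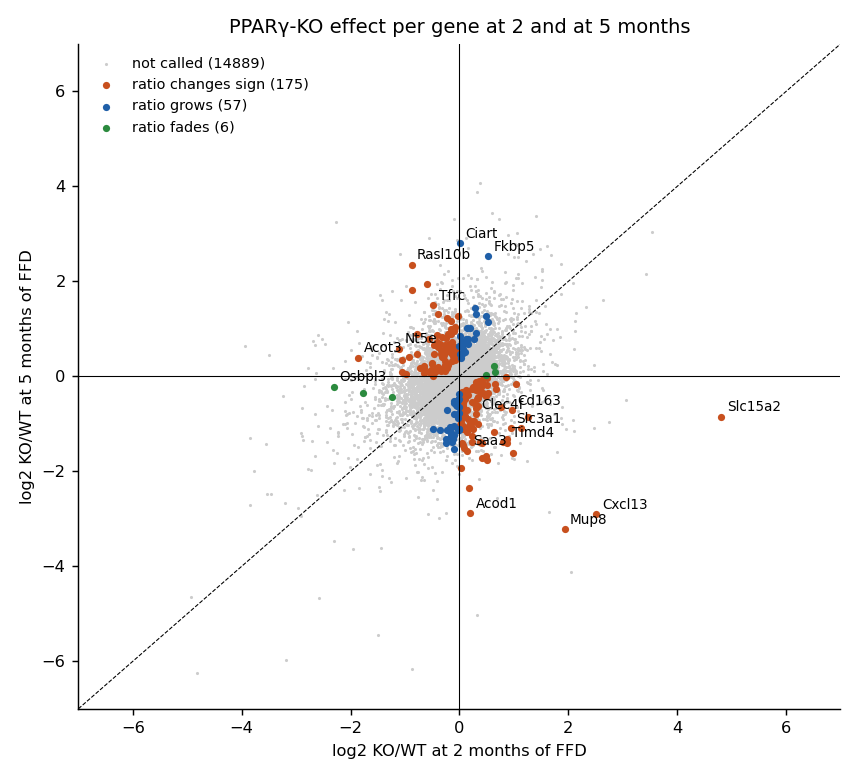
Log2 ratio of PPARγ-KO over wild-type at 2 months (horizontal axis) and at 5 months (vertical axis) for each of the 15127 genes tested, with the 238 called genes coloured by whether the ratio changed sign (175), grew (57) or faded (6) at 5 months. Most coloured genes lie near the vertical zero line or in the quadrants where the signs differ, and gray points are genes whose difference was not called.

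Kupffer cell markers shared the sign of their differences. All 9 tested markers had a negative difference, with a median of -1.36 against -0.00 over all genes, and 7 of them were called, all lower. Their median log2 ratio was 0.31 at 2 months and -1.07 at 5 months. In wild-type livers the summed level of the 9 markers was 408 to 521 CPM at 2 months and 1083 to 1175 CPM at 5 months, whereas in PPARγ-KO livers it was 462 to 530 CPM and 496 to 651 CPM. The groups therefore overlapped at 2 months and were apart at 5 months, and the summed level in PPARγ-KO livers at 5 months lay near that of 2 months. Much of the sum was Cd5l, with a mean of 584 CPM in wild-type livers at 5 months, and single markers took different courses. In PPARγ-KO livers the mean of Cd163 fell from 26.2 to 6.2 CPM between 2 and 5 months, while that of Cd5l rose from 151 to 254 CPM. The number of called markers was 6 with wild-type 5-month replicates 2 and 3 summed, 6 without replicate 2 of that group and 5 without replicate 3.

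Clec4f (ENSMUSG00000014542, chr6:83644542-83656187), the lectin receptor found on Kupffer cells and hardly elsewhere, had 109, 114 and 98.2 CPM in wild-type and 135, 130 and 134 CPM in PPARγ-KO livers at 2 months, and 225, 211 and 208 CPM in wild-type and 104, 134 and 134 CPM in PPARγ-KO livers at 5 months. PPARγ-KO livers were above every wild-type liver at 2 months and below every one at 5 months. The log2 ratio was 0.31 at 2 months (adjusted p = 0.0441) and -0.80 at 5 months (adjusted p = 4.27e-05), the difference was -1.10 ± 0.126 (SE, adjusted p = 0.000988), and Clec4f was 1 of the 19 genes that reversed with a call at both times. Vsig4 (ENSMUSG00000044206, chrX:96247203-96293438), a receptor for complement fragments that clears opsonized particles, had 29.1, 31.5 and 28.7 CPM in wild-type and 34.5, 34.1 and 37.5 CPM in PPARγ-KO livers at 2 months, and 58.9, 63.8 and 66.6 CPM in wild-type and 26.9, 41 and 30.9 CPM in PPARγ-KO livers at 5 months. Here too the groups were apart in opposite directions, although the ratio at 2 months was not called (0.25, adjusted p = 0.232), and the difference was -1.19 ± 0.166 (SE, adjusted p = 0.00456). Timd4 (ENSMUSG00000055546, chr11:46810800-46844332), which binds phosphatidylserine on dying cells and marks long-lived Kupffer cells, had 7.26, 6.65 and 5.64 CPM in wild-type and 12.8, 10.5 and 12.4 CPM in PPARγ-KO livers at 2 months, and 6.88, 7.64 and 7.89 CPM in wild-type and 1.94, 4.92 and 1.58 CPM in PPARγ-KO livers at 5 months. Its difference was -2.27 ± 0.409 (SE, adjusted p = 0.0167), and the call was lost without wild-type 5-month replicate 2 (adjusted p = 0.0549) or wild-type 5-month replicate 3 (adjusted p = 0.0594).

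Cd163, the scavenger receptor for haemoglobin and haptoglobin, and Fcna, a ficolin that starts the lectin pathway of complement and is made by macrophages, also reversed with a call at both times. Cd163 had 14.5, 11.5 and 14.5 CPM in wild-type and 24.7, 24.1 and 29.9 CPM in PPARγ-KO livers at 2 months, and 13.9, 7.93 and 8.57 CPM in wild-type and 5.15, 6.77 and 6.69 CPM in PPARγ-KO livers at 5 months, the highest values being in PPARγ-KO livers at 2 months. Its log2 ratio was 0.96 at 2 months (adjusted p = 0.00579) and -0.71 at 5 months (adjusted p = 0.0319). Fcna, which was not among the 9 markers, had log2 ratios of 0.48 at 2 months (adjusted p = 0.0102) and -0.41 at 5 months (adjusted p = 0.0167) and a difference of -0.89 ± 0.149 (SE, adjusted p = 0.00805).

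Cd5l, a secreted macrophage protein, differed in form, since its ratio was negative at both times and grew, from -0.16 (adjusted p = 0.499) to -1.20 (adjusted p = 5.33e-05). It had 551, 606 and 595 CPM in wild-type and 242, 291 and 228 CPM in PPARγ-KO livers at 5 months. Csf1r, the receptor for the macrophage growth factor CSF1, had a difference of -0.92 ± 0.156 (SE, adjusted p = 0.0112), and the folate receptor Folr2 one of -1.81 ± 0.339 (SE, adjusted p = 0.0137), a call lost without wild-type 5-month replicate 3 (adjusted p = 0.051). C1qa, a complement C1q subunit that macrophages make and that was not among the 9 markers, had 128, 163 and 165 CPM in wild-type against 93.9, 100 and 83.7 CPM in PPARγ-KO livers at 5 months and a difference of -0.86 ± 0.149 (SE, adjusted p = 0.0112). The remaining 2 markers were not called. Adgre1, which encodes F4/80, had a difference of -1.36 (adjusted p = 0.0963), and the scavenger receptor Marco one of -2.17 (adjusted p = 0.49), with 2.27, 37 and 5.3 CPM in the PPARγ-KO livers at 5 months, where 1 liver was at the wild-type level.

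**Figure D2:**
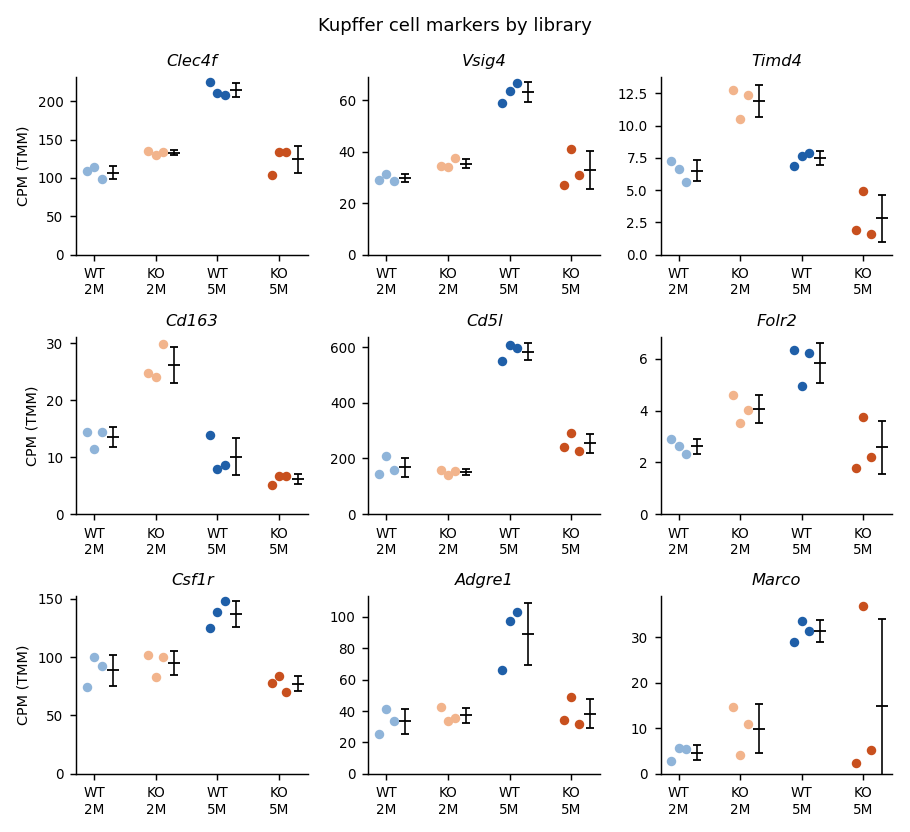
Level of the 9 Kupffer cell markers in each of the 12 libraries, in CPM, with each point 1 library and bars for the mean ± SD of the 3 libraries of a group. The 5-month wild-type group stands above the 5-month PPARγ-KO group for each marker except Marco, where 1 PPARγ-KO library reached 37.0 CPM, while for Clec4f the 2-month PPARγ-KO group stands above its wild-type group.

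The promoters of 4 of these macrophage genes are shown because they changed in the same direction and share a motif. Each runs from 250 bases before to 50 after a RefSeq start site in GRCm38.p6 and is given 5′ to 3′ on the gene's strand, with the Ets core GGAAGT, or ACTTCC where it lies on the other strand, in capitals. This is the core bound by the macrophage factor PU.1 and other Ets proteins. The windows are chr6:83656067-83656366 on the minus strand, chrX:96293389-96293688 on the minus strand, chr11:46810549-46810848 on the plus strand and chr2:25627925-25628224 on the minus strand.
Clec4f: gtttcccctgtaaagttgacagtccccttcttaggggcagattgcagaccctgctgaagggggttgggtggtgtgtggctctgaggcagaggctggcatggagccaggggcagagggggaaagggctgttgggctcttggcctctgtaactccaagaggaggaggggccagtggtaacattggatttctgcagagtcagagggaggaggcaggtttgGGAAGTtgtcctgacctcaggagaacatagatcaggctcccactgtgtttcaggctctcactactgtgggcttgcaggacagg
Vsig4: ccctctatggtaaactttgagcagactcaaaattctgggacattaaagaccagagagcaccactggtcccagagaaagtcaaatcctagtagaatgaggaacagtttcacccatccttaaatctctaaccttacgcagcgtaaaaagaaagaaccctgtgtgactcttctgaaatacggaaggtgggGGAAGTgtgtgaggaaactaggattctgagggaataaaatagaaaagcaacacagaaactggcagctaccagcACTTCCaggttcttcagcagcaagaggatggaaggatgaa
Timd4: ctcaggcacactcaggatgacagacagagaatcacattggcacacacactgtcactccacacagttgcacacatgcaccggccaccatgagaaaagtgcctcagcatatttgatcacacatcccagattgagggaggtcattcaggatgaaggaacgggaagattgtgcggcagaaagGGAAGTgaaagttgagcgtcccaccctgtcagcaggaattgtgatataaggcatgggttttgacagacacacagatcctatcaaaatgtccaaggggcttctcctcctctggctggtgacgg
Fcna: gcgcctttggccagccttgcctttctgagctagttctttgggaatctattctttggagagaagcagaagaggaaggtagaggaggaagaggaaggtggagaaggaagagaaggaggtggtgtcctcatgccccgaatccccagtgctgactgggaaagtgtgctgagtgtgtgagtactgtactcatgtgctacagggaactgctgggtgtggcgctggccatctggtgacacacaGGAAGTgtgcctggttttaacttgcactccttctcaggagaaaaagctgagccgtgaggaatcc
On either strand, GGAAGT was found in 4 of 8 promoters of the Kupffer cell markers and in 33 of 71 promoters of cytosolic ribosomal protein genes (46.5%), in 49 of 124 promoters of genes with a negative called difference (39.5%) and in 20 of 121 promoters of genes with a positive one (16.5%). It was found in 27.6% of the promoters of all genes tested and in 23.8% of all 32851 promoters. A match of letters is a description and not a binding site. The motifs were chosen with the values known, and RefSeq promoters were matched for 110 of the 138 lower and 83 of the 100 higher genes.

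Markers of other myeloid cells had few calls. Of 15 tested markers of monocyte-derived and lipid-associated macrophages, 1 was called, the Fc receptor Fcgr1, which is shared with Kupffer cells (-1.13 ± 0.271, SE, adjusted p = 0.047, a call made in 4 of the 12 leave-one-out fits, highest adjusted p = 0.143, without wild-type 5-month replicate 2). The list had a positive median difference, 0.49, with a median log2 ratio of -1.09 at 2 months and -0.78 at 5 months. Trem2, a lipid receptor of these macrophages, had 2.89, 5.1 and 4.42 CPM in wild-type and 1.19, 1.94 and 1.04 CPM in PPARγ-KO livers at 2 months, and 11, 18.5 and 17.3 CPM in wild-type and 6.85, 11 and 9.54 CPM in PPARγ-KO livers at 5 months. PPARγ-KO livers were below wild-type at 2 months, the ranges touched at 5 months, and the difference was 0.83 (adjusted p = 0.358). Gpnmb, a glycoprotein of the same cells, had ratios of -2.60 and -1.04 and a difference of 1.56 (adjusted p = 0.36). Markers of recruited macrophages thus had negative median ratios at both times, against a negative median at 5 months alone for the Kupffer cell markers, and the contrast of the lists was not tested.

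Several genes of myeloid cells outside these lists stood among the 10 most negative differences. Acod1, which makes itaconate in activated macrophages, had 1.6, 3.09 and 3.97 CPM in wild-type and 0.425, 0.462 and 0.253 CPM in PPARγ-KO livers at 5 months, with a difference of -3.09 ± 0.604 (SE, adjusted p = 0.0171). This call was lost without PPARγ-KO 2-month replicate 1 (adjusted p = 0.056), PPARγ-KO 5-month replicate 3 (adjusted p = 0.0501), wild-type 5-month replicate 2 (adjusted p = 0.0526) or wild-type 5-month replicate 3 (adjusted p = 0.0594). Cd300e, an activating receptor of monocytes, had 2.18, 1.85 and 2.23 CPM in wild-type and 3.42, 2.57 and 2.91 CPM in PPARγ-KO livers at 2 months, and 4.09, 5.13 and 5.17 CPM in wild-type and 1.37, 1.18 and 1.71 CPM in PPARγ-KO livers at 5 months, and its difference was -2.27 ± 0.307 (SE, adjusted p = 0.0027). Cxcl13, the chemokine that draws B cells, was called at both times with ratios of 2.52 at 2 months (adjusted p = 0.0195) and -2.90 at 5 months (adjusted p = 0.0218). It was at 0.382, 0.412 and 0.203 CPM in wild-type and 3.68, 0.913 and 1.23 CPM in PPARγ-KO livers at 2 months, and at 0.652, 1.11 and 1.15 and 0, 0.256 and 0.126 CPM at 5 months. All PPARγ-KO values lay above wild-type at 2 months and below at 5 months, but the level was low and the difference of -5.42 ± 0.983 (SE, adjusted p = 0.013) rests on few counts.

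Lymphocyte markers had negative differences as well, none of them called. The median difference was -1.12 over 11 B cell markers (10 negative) and -1.04 over 13 T and NK cell markers (12 negative). By edgeR none was called, 4 and 3 had an unadjusted p below 0.05, DESeq2 called none in either list, and limma-voom called 2 B cell markers and no T or NK cell marker. At 5 months, where 7.43% of all genes tested were called lower, 6 of the 11 B cell markers were called lower in PPARγ-KO livers and none higher. Their summed level was nevertheless higher there, at 39.3 to 52.8 CPM against 23.2 to 37.8 CPM in wild-type, without overlap. At 2 months the summed level was 32.7 to 87.7 CPM in PPARγ-KO and 31.5 to 37.9 CPM in wild-type livers, with overlap. The medians of single B cell markers therefore do not describe the summed level. Cd22, a B cell inhibitory receptor, had 3.2, 5.19 and 5.33 CPM in wild-type and 2.03, 1.39 and 1.39 CPM in PPARγ-KO livers at 5 months, and its difference was -1.28 (adjusted p = 0.145). MHC class II genes also had negative differences without a call. All 10 had a negative difference, with a median of -0.61, and none was called by edgeR, DESeq2 or limma-voom, 1 having an unadjusted p below 0.05. H2-Aa, an MHC class II chain, had 145, 288 and 290 CPM in wild-type and 139, 89.9 and 82 CPM in PPARγ-KO livers at 5 months, so wild-type replicate 1 lay close to the highest PPARγ-KO liver. Of the 13 neutrophil markers 4 were tested, none was called by any of the 3 tools, and 1 had an unadjusted p below 0.05.

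Endothelial markers were mixed, with 3 of 17 called lower and 1 called higher and a median of -0.07. Of the 17 differences 12 were negative and 5 positive. The 3 called lower are known from the liver sinusoid, but Stab2 and Lyve1, listed as well, were not called. Clec4g, a sinusoidal lectin, had 30.3, 33.6 and 32.2 CPM in wild-type and 34.9, 37.1 and 40.2 CPM in PPARγ-KO livers at 2 months, and 57.7, 51.7 and 44 CPM in wild-type and 32.9, 36.2 and 36.1 CPM in PPARγ-KO livers at 5 months, with PPARγ-KO above every wild-type liver at 2 months and below every one at 5 months. Its difference was -0.77 ± 0.13 (SE, adjusted p = 0.00859). Dnase1l3, a secreted DNase made by sinusoidal endothelium and macrophages, reversed with calls at both times, with ratios of 0.27 at 2 months (adjusted p = 0.0211) and -0.27 at 5 months (adjusted p = 0.0176). Fcgr2b, the inhibitory Fc receptor of the sinusoid, had a difference of -0.58 ± 0.11 (SE, adjusted p = 0.0138), a call lost without wild-type 5-month replicate 3 (adjusted p = 0.051). Flt4, the receptor of VEGF-C, was the higher one, at 1.05 ± 0.206 (SE, adjusted p = 0.0303), and its call was made in 5 of the 12 leave-one-out fits (highest adjusted p = 0.0734, without PPARγ-KO 2-month replicate 1). The pan-endothelial marker Pecam1 was not called.

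The 19 genes that reversed with a call at both times included 11 with a positive ratio at 2 months and a negative one at 5 months and 8 with the opposite order. Beyond Clec4f, Cd163, Fcna, Cxcl13 and Dnase1l3, the first kind held Tifa, an adaptor that links danger signals to NF-κB, Zfpm1, a cofactor of GATA factors, the C1 inhibitor Serping1, the plasma protein Itih4, the amino acid transporter subunit Slc3a1 and the mitochondrial tRNA mt-Ty. Serping1 had 607, 480 and 545 CPM in wild-type and 715, 675 and 767 CPM in PPARγ-KO livers at 2 months, and 689, 739 and 756 CPM in wild-type and 605, 512 and 603 CPM in PPARγ-KO livers at 5 months, with no overlap at 2 months and with PPARγ-KO lower at 5 months. Its ratios were 0.40 at 2 months (adjusted p = 0.0154) and -0.34 at 5 months (adjusted p = 0.0221), and the difference was -0.75 ± 0.133 (SE, adjusted p = 0.0112). Tifa had 12, 13.7 and 11.1 CPM in wild-type and 15.1, 15.6 and 15.6 CPM in PPARγ-KO livers at 2 months, and 27.7, 26.5 and 27.4 CPM in wild-type and 19.8, 18.4 and 21.4 CPM in PPARγ-KO livers at 5 months, with the groups apart at each time and in opposite order. The Tifa gene overlaps Ap1ar on the other strand over 25158 bases, and the strand setting of the counting is not known. Zfpm1 had a difference of -0.80 ± 0.134 (SE, adjusted p = 0.00805) with ratios of 0.33 and -0.47, and mt-Ty one of -1.40 ± 0.24 (SE, adjusted p = 0.00923). The calls of Slc3a1 (-2.04 ± 0.322, SE, adjusted p = 0.0147) and Itih4 (-0.70 ± 0.14, SE, adjusted p = 0.0188) were less firm, the first being lost without wild-type 5-month replicate 3 (adjusted p = 0.0508) and the second lost without PPARγ-KO 5-month replicate 2 (adjusted p = 0.0533), wild-type 5-month replicate 2 (adjusted p = 0.0651) or wild-type 5-month replicate 3 (adjusted p = 0.0657).

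The 8 genes with the opposite order, lower in PPARγ-KO livers at 2 months and higher at 5 months, were Nt5e, Klf11, Tns1, Zfp36l2, Map3k5, Sbk1, Pank3 and Gm23935, a short RNA gene annotated as a miRNA. Nt5e (ENSMUSG00000032420, chr9:88327197-88372092) encodes CD73, the surface enzyme that makes adenosine from AMP, and had 13.2, 14.6 and 13.2 CPM in wild-type and 6.01, 6.73 and 6.29 CPM in PPARγ-KO livers at 2 months, and 11.9, 13.4 and 12.7 CPM in wild-type and 13.6, 21.8 and 21.8 CPM in PPARγ-KO livers at 5 months. The PPARγ-KO level at 2 months was below every other library, and that at 5 months was above every wild-type library of that time. Its ratios were -1.10 at 2 months (adjusted p = 0.000606) and 0.59 at 5 months (adjusted p = 0.0152), and the difference was 1.69 ± 0.216 (SE, adjusted p = 0.0027). Klf11, a Krüppel-like repressor, had 15.3, 15.8 and 12.7 CPM in wild-type and 9.89, 8.67 and 10.9 CPM in PPARγ-KO livers at 2 months, and 11.4, 10.9 and 13.1 CPM in wild-type and 18.1, 22.5 and 20.3 CPM in PPARγ-KO livers at 5 months, again apart in opposite directions, with a difference of 1.34 ± 0.177 (SE, adjusted p = 0.0027). Tns1, a focal adhesion protein, had ratios of -0.34 at 2 months (adjusted p = 0.00943) and 0.56 at 5 months (adjusted p = 0.000153) and a difference of 0.90 ± 0.104 (SE, adjusted p = 0.000988).

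The remaining members of this kind were kinases, an RNA-binding protein, a metabolic enzyme and the short RNA gene. Zfp36l2, an RNA-binding protein that promotes mRNA decay, had a difference of 0.80 ± 0.125 (SE, adjusted p = 0.00542), and the stress kinase Map3k5 (ASK1) had 0.71 ± 0.122 (SE, adjusted p = 0.00918). Sbk1, a kinase, had 1.12 ± 0.184 (SE, adjusted p = 0.0112). Pank3, which starts coenzyme A synthesis, had 0.50 ± 0.0943 (SE, adjusted p = 0.014), a call lost without wild-type 5-month replicate 2 (adjusted p = 0.053). Gm23935 had 457, 390 and 381 CPM in wild-type and 309, 297 and 280 CPM in PPARγ-KO livers at 2 months, and 5832, 4455 and 4067 CPM in wild-type and 6058, 7388 and 6346 CPM in PPARγ-KO livers at 5 months. The change with time in both genotypes was far larger than the knockout effect at either time, and the difference of 0.94 ± 0.174 (SE, adjusted p = 0.0135) was a call lost without wild-type 5-month replicate 2 (adjusted p = 0.053). Lars2, the mitochondrial leucyl-tRNA synthetase, had a like course, with 142, 122 and 116 CPM and 97.4, 96 and 94.4 CPM at 2 months and 1637, 1137 and 1085 CPM and 2082, 1757 and 2085 CPM at 5 months in wild-type and PPARγ-KO livers. Its difference was 1.02 ± 0.192 (SE, adjusted p = 0.0179), a call lost without PPARγ-KO 5-month replicate 3 (adjusted p = 0.0531) or wild-type 5-month replicate 2 (adjusted p = 0.0532). Gm23935 is annotated as 57 bases inside Zc3h7a on the other strand. It held 667500 counts over all libraries, against 10391 for Zc3h7a. Which RNA gave the reads counted for Gm23935 and Lars2 was not tested, so their values may not be levels of the named transcripts.

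Acute phase genes had lower ratios at 5 months than at 2 months. Of 25 acute phase and IL-6 signalling genes, 23 had a negative difference, with a median of -0.45, and 7 were called, all lower. The median log2 ratio was 0.00 at 2 months and -0.39 at 5 months, and the summed level at 5 months was 30022 to 34746 CPM in wild-type and 23496 to 24896 CPM in PPARγ-KO livers. Saa3 (ENSMUSG00000040026, chr7:46711998-46715700), a serum amyloid A that macrophages and hepatocytes make in inflammation, had 2.46, 2.16 and 3.5 CPM in wild-type and 2.54, 3.08 and 3.35 CPM in PPARγ-KO livers at 2 months, and 22.7, 22.7 and 22.1 CPM in wild-type and 9.07, 6.31 and 7.39 CPM in PPARγ-KO livers at 5 months. The 2-month groups overlapped, whereas every PPARγ-KO liver at 5 months had less than any wild-type liver of that time, and the difference was -1.71 ± 0.255 (SE, adjusted p = 0.00456). Saa1, the hepatocyte form, had 708, 1121 and 1129 CPM against 309, 276 and 403 CPM at 5 months, but its difference missed the threshold (-1.27, adjusted p = 0.0668).

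The carrier of free haem, Hpx, was among the abundant genes of this list, with 2974, 3133 and 3187 CPM in wild-type and 2586, 3076 and 3056 CPM in PPARγ-KO livers at 2 months, and 8213, 9774 and 9690 CPM in wild-type and 5986, 5005 and 5006 CPM in PPARγ-KO livers at 5 months. Its difference was -0.70 ± 0.145 (SE, adjusted p = 0.0244), with no overlap at 5 months. This call was made in 6 of the 12 leave-one-out fits (highest adjusted p = 0.0844, without wild-type 5-month replicate 2). Il6st, the signal-transducing subunit of the IL-6 receptor, had a difference of -0.46 ± 0.0938 (SE, adjusted p = 0.0221), a call made in 6 of the 12 leave-one-out fits (highest adjusted p = 0.0619, without PPARγ-KO 5-month replicate 2). With wild-type 5-month replicates 2 and 3 summed, 1 gene of the list was called, and without wild-type 2-month replicate 1, 11 were.

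Complement and coagulation genes had 2 of 26 called lower, with a median of -0.12. These were C9, the pore-forming component, with 241, 214 and 284 CPM in wild-type and 363, 358 and 337 CPM in PPARγ-KO livers at 2 months, and 708, 587 and 581 CPM in wild-type and 530, 395 and 556 CPM in PPARγ-KO livers at 5 months, and the mannose-binding lectin Mbl1. For C9 the groups were apart in opposite directions, and the difference was -0.86 ± 0.182 (SE, adjusted p = 0.0338), a call made in 4 of the 12 leave-one-out fits (highest adjusted p = 0.0743, without PPARγ-KO 2-month replicate 1). Mbl1 had a difference of -0.51 ± 0.111 (SE, adjusted p = 0.0323), a call made in 3 of the 12 leave-one-out fits (highest adjusted p = 0.085, without PPARγ-KO 2-month replicate 1).

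Interferon-stimulated genes had a median ratio of 0.32 at 2 months and of -0.12 at 5 months. Of 27 tested genes 25 had a negative difference, and 2 were called, the transcription factor Irf9 and the antiviral tether Bst2. At 2 months 7 of the 27 were called higher and none lower, against 3.69% and 3.93% of all genes tested. Irf9 had 33.7, 31.4 and 28.8 CPM in wild-type and 39.5, 43.9 and 49.8 CPM in PPARγ-KO livers at 2 months, and 34.6, 37.5 and 38.2 CPM in wild-type and 36.5, 33.2 and 37.3 CPM in PPARγ-KO livers at 5 months. PPARγ-KO livers were higher without overlap at 2 months, and the groups overlapped at 5 months. The difference was -0.55 ± 0.127 (SE, adjusted p = 0.041), a call made in 3 of the 12 leave-one-out fits (highest adjusted p = 0.119, without wild-type 5-month replicate 3). Bst2 had a difference of -0.54 ± 0.129 (SE, adjusted p = 0.0453), a call made in 2 of the 12 leave-one-out fits (highest adjusted p = 0.0931, without PPARγ-KO 5-month replicate 2). Irgm1, an interferon-induced GTPase, had ratios of 0.63 at 2 months (adjusted p = 0.00388) and -0.02 at 5 months (adjusted p = 0.936), and its difference was -0.65 (adjusted p = 0.0599). DESeq2 called 5 genes of the list and edgeR with library size alone called none.

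Genes of toll-like receptor and NF-κB signalling had 22 of 26 differences below 0 (median -0.34) and none called by edgeR, with 9 at an unadjusted p below 0.05, 2 called by DESeq2 and 3 by limma-voom. Of 23 chemokine and receptor genes 1 was called lower, Cxcl13, and the median was -0.62. Chemokine receptor Cx3cr1 went the other way, at 0.92 (adjusted p = 0.183).

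The list with the most called members was the cytosolic ribosome. Of 80 ribosomal protein genes tested, 13 were called, all lower, and 78 had a negative difference. The median was -0.33, with median ratios of -0.00 at 2 months and -0.33 at 5 months. The summed level at 5 months was 16042 to 16421 CPM in wild-type and 12607 to 13252 CPM in PPARγ-KO livers. Rplp1, a protein of the ribosomal stalk, had 210, 218 and 204 CPM in wild-type and 225, 231 and 222 CPM in PPARγ-KO livers at 2 months, and 445, 434 and 432 CPM in wild-type and 317, 321 and 311 CPM in PPARγ-KO livers at 5 months. Values were close at 2 months, with every PPARγ-KO library slightly above every wild-type library. They rose in both genotypes by 5 months and rose less in PPARγ-KO livers, which were then below wild-type without overlap. The difference was -0.57 ± 0.0854 (SE, adjusted p = 0.00465). Rps24 had a difference of -0.47 ± 0.0853 (SE, adjusted p = 0.0112), Rps15a of -0.57 ± 0.0971 (SE, adjusted p = 0.00857) and Rpl36a of -0.57 ± 0.101 (SE, adjusted p = 0.0112).

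Ribosomal protein transcripts are short, and gene length moved with this result. At 5 months the slope on length of each library's level, relative to the mean of all libraries, was -0.16 to -0.127 log2 per doubling of length in wild-type and -0.0999 to -0.0796 in PPARγ-KO livers, without overlap, whereas at 2 months it was 0.105 to 0.131 and 0.111 to 0.112. Over 10 bins of gene length of protein-coding genes, the median difference ran from -0.12 in the shortest genes (median 1383 bases) to 0.06 in the longest (12603 bases). The genes called lower had a median length of 2572 bases, those called higher of 6142, and all genes tested of 3960. With an offset for gene length in each library, 8 ribosomal protein genes were called and their median was -0.28, and 194 genes were called in all. The count of ribosomal protein genes was also 8 with wild-type 5-month replicates 2 and 3 summed, 5 without replicate 3 of that group and 32 without wild-type 2-month replicate 1. DESeq2 called 37 of the 80 on all libraries, limma-voom 49, and edgeR without the filter on low counts 28. With the offset for gene length the median of the Kupffer cell markers was -1.35, with 7 called, and that of the acute phase genes -0.42, with 6 called, while without the offset DESeq2 called 10 acute phase genes and limma-voom 13.

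**Figure D3:**
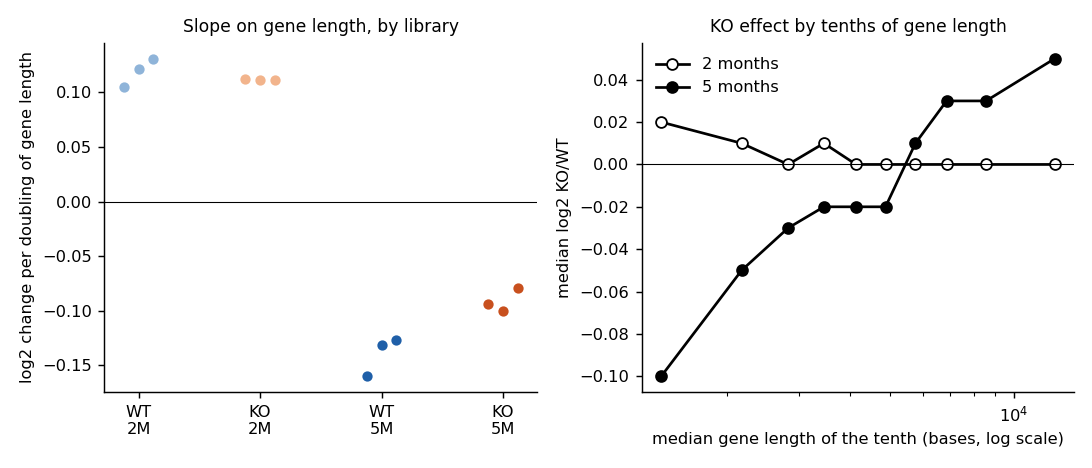
Left, slope of log2 level on log2 gene length in each of the 12 libraries, relative to the mean library, by group. Right, median log2 ratio of PPARγ-KO over wild-type at 2 and at 5 months, by 10 bins of gene length. The slopes of the 5-month groups do not overlap, and the 5-month ratio runs from -0.10 in the shortest bin to 0.05 in the longest while the 2-month ratio stays within 0.02 of 0.

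Fkbp5 was among the genes with a positive difference that were called in every alternative run. Fkbp5 (ENSMUSG00000024222, chr17:28399094-28517527), a chaperone of the glucocorticoid receptor and a sensitive glucocorticoid target, had 22.6, 22 and 23.1 CPM in wild-type and 24.3, 29.7 and 43.3 CPM in PPARγ-KO livers at 2 months, and 15.9, 16.7 and 17.2 CPM in wild-type and 86.3, 89.7 and 113 CPM in PPARγ-KO livers at 5 months. Wild-type livers had less at 5 than at 2 months, and PPARγ-KO livers had the highest values at 5 months, above every other library. The ratio grew from 0.53 (adjusted p = 0.11) to 2.53 (adjusted p = 3.11e-05), and the difference was 2.00 ± 0.257 (SE, adjusted p = 0.00643). The 4 overlapping transcripts, 2 of them antisense, had at most 616 counts each against its 9688 over all libraries. Of 18 glucocorticoid response genes 2 were called higher, Fkbp5 and the phosphatase Dusp1, and the median was 0.02, with 9 differences above and 9 below 0. DESeq2 called 4 of them higher, and limma-voom 4 higher and 1 lower. Zbtb16, another glucocorticoid target, had 7.11, 4.78 and 5.33 CPM in wild-type and 59.8, 57.9 and 68.7 CPM in PPARγ-KO livers at 5 months. Its values varied at 2 months and the difference was 2.83 (adjusted p = 0.112). Tsc22d3 (GILZ), a further target, had a difference of the opposite sign, -0.76 (adjusted p = 0.532), with a ratio of 1.55 (adjusted p = 0.0345) at 2 months.

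Immediate early genes had 2 of 18 called higher, Dusp1 and Junb. Dusp1, which dephosphorylates MAP kinases, had 45.2, 38 and 46.2 CPM in wild-type and 86.6, 68.5 and 80.3 CPM in PPARγ-KO livers at 5 months and overlapped at 2 months. Its difference was 1.28 ± 0.233 (SE, adjusted p = 0.0256), a call made in 6 of the 12 leave-one-out fits (highest adjusted p = 0.0673, without PPARγ-KO 5-month replicate 3). Junb, an AP-1 subunit, had ratios of -0.64 at 2 months (adjusted p = 0.00388) and 0.18 at 5 months (adjusted p = 0.372) and a difference of 0.82 ± 0.167 (SE, adjusted p = 0.0221), a call made in 7 of the 12 leave-one-out fits (highest adjusted p = 0.0537, without PPARγ-KO 2-month replicate 1).

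Clock genes had 3 of 20 called higher and a median of 0.35, with median ratios of 0.06 at 2 months and 0.42 at 5 months. Their levels also moved between the 2 times in both genotypes. The median log2 change from 2 to 5 months was -1.02 in wild-type and -0.68 in PPARγ-KO livers, while Arntl rose by 2.13 and 1.63. Ciart (ENSMUSG00000038550, chr3:95878503-95882251), a circadian repressor of CLOCK and BMAL1, had 9.83, 12.4 and 14.5 CPM in wild-type and 9.69, 12 and 15.2 CPM in PPARγ-KO livers at 2 months, and 0.889, 0.758 and 0.993 CPM in wild-type and 10.3, 3.8 and 4.36 CPM in PPARγ-KO livers at 5 months. The groups coincided at 2 months. At 5 months wild-type livers were below 1 CPM and every PPARγ-KO liver was higher, 1 of them as high as at 2 months. The difference was 2.79 ± 0.544 (SE, adjusted p = 0.0338), and the call was made in 5 of the 12 leave-one-out fits (highest adjusted p = 0.119, without wild-type 5-month replicate 2). The repressor Cry2 had a difference of 0.63 ± 0.14 (SE, adjusted p = 0.0357), a call made in 3 of the 12 leave-one-out fits (highest adjusted p = 0.0711, without PPARγ-KO 5-month replicate 1). Hlf, a PAR bZIP output factor, had a difference of 0.52 ± 0.106 (SE, adjusted p = 0.0212), a call made in 7 of the 12 leave-one-out fits (highest adjusted p = 0.077, without wild-type 5-month replicate 3). Other members the clock is known by were not called, Per2 being at 0.48 (adjusted p = 0.503), Dbp at 0.46 (adjusted p = 0.425) and Arntl, which encodes BMAL1, at -0.50 (adjusted p = 0.421). With wild-type 5-month replicates 2 and 3 summed none of the 20 was called by edgeR, and DESeq2 on all libraries called 4. The hour of sampling is not given in the sources used here, and a difference in hour between the groups was not tested.

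The promoter of Ciart is shown because it holds 3 copies of the E-box CACGTG, the element that CLOCK and BMAL1 bind. The window is chr3:95882179-95882478 on the minus strand of GRCm38.p6, with the E-boxes in capitals.
Ciart: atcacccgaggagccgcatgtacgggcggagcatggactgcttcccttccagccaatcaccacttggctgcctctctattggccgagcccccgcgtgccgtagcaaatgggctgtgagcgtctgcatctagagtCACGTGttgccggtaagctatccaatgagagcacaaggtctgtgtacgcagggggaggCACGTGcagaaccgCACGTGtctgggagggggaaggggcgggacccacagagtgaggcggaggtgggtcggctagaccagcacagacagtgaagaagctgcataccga
The E-box, which reads the same on both strands, was in 6 of 22 promoters of the clock genes (27.3%), in 18 of 121 promoters of genes called higher (14.9%), in 4 of 124 of genes called lower (3.23%), in 9.54% of those of all genes tested and in 7.15% of all promoters. A D-box (TTANGTAA), a sterol response element (TCACNCCAC) and a STAT site (TTCCNGGAA) were also searched. In all promoters they were found in 2.32%, 1.24% and 1.15%, in promoters of genes called higher in 0.826%, 0 and 0, and in those of genes called lower in 1.61%, 4.03% and 3.23%.

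Most sterol and fatty acid synthesis genes had a higher ratio at 5 than at 2 months, but edgeR called none of these differences. In the cholesterol pathway 20 of 21 genes had a positive difference (median 0.49), with median ratios of 0.39 at 2 months and 0.89 at 5 months. Of the 21, 15 were called higher at 5 months and 3 at 2 months, against 6.05% and 3.69% of all genes tested. None of the 21 differences was called by edgeR, 8 had an unadjusted p below 0.05, DESeq2 called 2 and limma-voom 3. Without wild-type 2-month replicate 1, 4 were called higher and 1 lower. Nsdhl, a sterol dehydrogenase, had ratios of 0.56 at 2 months (adjusted p = 0.0165) and 1.28 at 5 months (adjusted p = 4.27e-05), and its difference was 0.73 (adjusted p = 0.0699).

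Insig1, which retains SREBP in the endoplasmic reticulum and is itself an SREBP target, had a difference of 0.68 (adjusted p = 0.0686) and an adjusted p of 0.00525 under the replicate block at 2 months. Over 19 genes of SREBP, ChREBP and LXR regulation and sterol transport, 6 differences were positive and 13 negative, with a median of -0.13. Of these genes 1 was called higher and 1 lower. The lower one was the sterol exporter Abcg1, an LXR target of macrophages and hepatocytes. Its ratio grew from -0.48 (adjusted p = 0.0108) to -1.11 (adjusted p = 1.88e-05), with a difference of -0.63 ± 0.149 (SE, adjusted p = 0.0453), a call made in 3 of the 12 leave-one-out fits (highest adjusted p = 0.135, without wild-type 5-month replicate 3).

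In fatty acid synthesis 16 of 19 genes had a positive difference (median 0.50), and none was called by edgeR, with 12 at an unadjusted p below 0.05. DESeq2 called 6 of them and limma-voom 5, and edgeR called 6 without wild-type 2-month replicate 1. Fasn, fatty acid synthase, had 1323, 3026 and 3635 CPM in wild-type replicates 1, 2 and 3 at 2 months, the first being the lowest, and a difference of 0.65 (adjusted p = 0.574). Slc25a1, the mitochondrial citrate carrier, had a difference of 0.40 (adjusted p = 0.0634) and Acss2, which makes acetyl-CoA from acetate, of 0.71 (adjusted p = 0.0879). Lpin3, a phosphatidate phosphatase, was the 1 called gene of 16 in triglyceride synthesis, at 0.83 ± 0.194 (SE, adjusted p = 0.0415), a call made in 2 of the 12 leave-one-out fits (highest adjusted p = 0.121, without PPARγ-KO 5-month replicate 3). Of 17 lipid droplet genes none was called by edgeR, 4 had an unadjusted p below 0.05, DESeq2 called 1 and limma-voom 3. Plin2, the coat protein of droplets, had ratios of -0.73 and -0.76 at 2 and 5 months and a difference of -0.03 (adjusted p = 0.948).

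Genes known to respond to PPARα had lower ratios at 2 months. Over 16 such genes the median ratio was -0.70 at 2 months and -0.10 at 5 months. Of these, 8 were called lower at 2 months and 4 at 5 months, against 3.93% and 7.43% of all genes tested. For the 16 genes 2 differences were called, both higher. Acot3 (ENSMUSG00000021228, chr12:84052144-84060402), a peroxisomal acyl-CoA thioesterase, had 29.8, 54.7 and 29.8 CPM in wild-type and 10.9, 9.07 and 11.5 CPM in PPARγ-KO livers at 2 months, and 2.13, 2.92 and 2.87 CPM in wild-type and 3.31, 3.85 and 3.28 CPM in PPARγ-KO livers at 5 months. The 2-month groups were apart, and at 5 months both genotypes were at a far lower level, with PPARγ-KO livers slightly above wild-type. The difference was 2.25 ± 0.359 (SE, adjusted p = 0.0112), with ratios of -1.86 at 2 months (adjusted p = 0.000456) and 0.39 at 5 months (adjusted p = 0.436). Acot4, its neighbour, had a difference of 1.24 ± 0.243 (SE, adjusted p = 0.0362), a call made in 5 of the 12 leave-one-out fits (highest adjusted p = 0.0941, without wild-type 5-month replicate 2) that was lost under the block at 2 months (adjusted p = 0.0615). An antisense gene overlaps both and had 865 counts in all. Cyp4a14, a fatty acid hydroxylase and PPARα target, was lower at both times (-1.76 and -1.36) and its difference was 0.39 (adjusted p = 0.725). Among 17 genes of peroxisomal oxidation Crot, the carnitine octanoyltransferase, was the 1 called, with a difference of -0.46 ± 0.108 (SE, adjusted p = 0.0423), a call made in 3 of the 12 leave-one-out fits (highest adjusted p = 0.114, without wild-type 5-month replicate 2).

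Osbpl3 (ENSMUSG00000029822, chr6:50293330-50456201), an oxysterol-binding protein at membrane contacts, was 1 of the 6 genes whose effect faded. It had 46.2, 86.5 and 67.1 CPM in wild-type and 16, 11.5 and 13.1 CPM in PPARγ-KO livers at 2 months, and 47.3, 59.4 and 56.9 CPM in wild-type and 42.6, 46.1 and 52.8 CPM in PPARγ-KO livers at 5 months. PPARγ-KO livers had far less at 2 months, without overlap, and at 5 months the groups overlapped, for ratios of -2.30 at 2 months (adjusted p = 0.000546) and -0.21 at 5 months (adjusted p = 0.587). The difference was 2.08 ± 0.306 (SE, adjusted p = 0.013), and under a replicate block at both times its adjusted p was 0.0717. Cd36, the fatty acid translocase, had a similar course, with ratios of -0.81 at 2 months (adjusted p = 0.00621) and -0.08 at 5 months (adjusted p = 0.775). Its difference was 0.72 (adjusted p = 0.114) and was called under the block at 2 months (adjusted p = 0.00364).

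In bile acid synthesis and transport 2 of 22 genes were called higher. Cyp8b1 (ENSMUSG00000050445, chr9:121914356-121916305), the sterol 12α-hydroxylase that sets the share of cholic acid, had 381, 340 and 258 CPM in wild-type and 305, 316 and 346 CPM in PPARγ-KO livers at 2 months, and 157, 131 and 131 CPM in wild-type and 310, 409 and 296 CPM in PPARγ-KO livers at 5 months. The groups overlapped at 2 months. At 5 months the wild-type level was lower and the PPARγ-KO level was not, without overlap, so that the difference was 1.3 ± 0.212 (SE, adjusted p = 0.0125). Abcc2, the canalicular exporter of conjugates, had a difference of 0.49 ± 0.118 (SE, adjusted p = 0.0474), a call made in 2 of the 12 leave-one-out fits (highest adjusted p = 0.141, without PPARγ-KO 5-month replicate 3). Cyp7a1, the rate-limiting enzyme of bile acid synthesis, varied between libraries and was at 1.05 (adjusted p = 0.491).

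**Figure D4:**
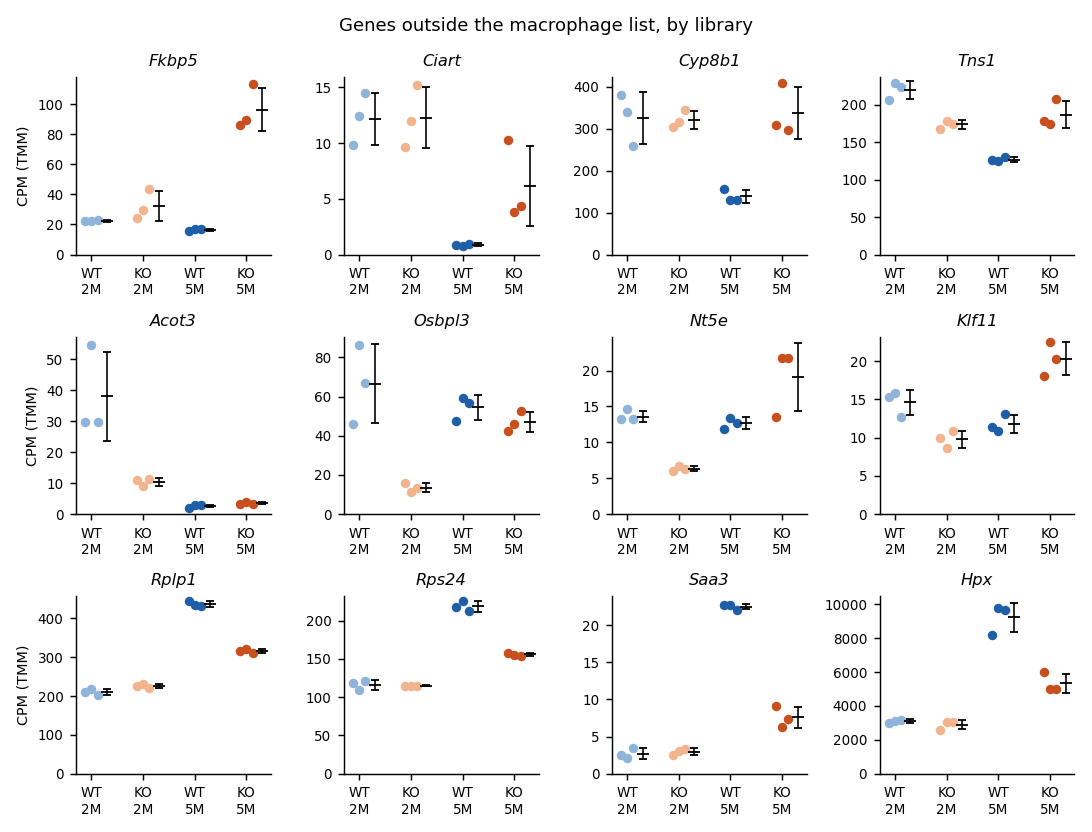
Level of 12 genes with a called difference in each of the 12 libraries, in CPM on a separate scale for each gene, with each point 1 library and bars for the mean ± SD of the 3 libraries of a group. Fkbp5 and Cyp8b1 show 5-month PPARγ-KO libraries above wild-type with 2-month groups that overlap or lie close, Nt5e and Klf11 show groups apart in opposite directions, and Osbpl3 shows a gap at 2 months that is nearly closed at 5 months.

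The remaining genes among the 10 most negative and 10 most positive differences had diverse functions. Slc15a2, a peptide transporter, had 0.164, 0.412 and 0.254 CPM in wild-type and 7.04, 5.08 and 11.6 CPM in PPARγ-KO livers at 2 months, and 3.26, 3.79 and 3.66 CPM in wild-type and 2.27, 1.08 and 2.65 CPM in PPARγ-KO livers at 5 months. The 2-month PPARγ-KO livers were high, 2-month wild-type livers were near 0, and the order was turned at 5 months, with a difference of -5.66 ± 0.562 (SE, adjusted p = 0.000854), although the ratio at 5 months was not called (-0.85, adjusted p = 0.122). The retinol and steroid dehydrogenase Hsd17b6, chosen after its values were seen, had 213, 156 and 152 CPM in wild-type and 53.1, 39.9 and 43.8 CPM in PPARγ-KO livers at 5 months, overlapped at 2 months and had a difference of -1.96 ± 0.285 (SE, adjusted p = 0.0125). Igfbp2, a carrier of IGF1, had 405, 328 and 326 CPM against 142, 115 and 148 CPM at 5 months, with a difference of -2.19 ± 0.421 (SE, adjusted p = 0.0453), a call made in 2 of the 12 leave-one-out fits (highest adjusted p = 0.112, without wild-type 5-month replicate 2). Fam167a had a difference of -2.52 ± 0.455 (SE, adjusted p = 0.0112).

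Sult5a1, a sulfotransferase, had -2.61 ± 0.56 (SE, adjusted p = 0.0421), a call made in 4 of the 12 leave-one-out fits (highest adjusted p = 0.125, without PPARγ-KO 5-month replicate 3). Gm13522, which lies antisense to Neb, had -2.22 ± 0.49 (SE, adjusted p = 0.0338), a call made in 4 of the 12 leave-one-out fits (highest adjusted p = 0.0884, without PPARγ-KO 5-month replicate 2). Mup8, a major urinary protein, had -5.15 ± 1.03 (SE, adjusted p = 0.0328), a call made in 4 of the 12 leave-one-out fits (highest adjusted p = 0.102, without PPARγ-KO 5-month replicate 2). Near-identical copies of this gene exist among which reads may be split, so its value is uncertain.

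On the positive side Tfrc, the transferrin receptor, had 29.5, 28.9 and 34 CPM in wild-type and 102, 77.5 and 82.2 CPM in PPARγ-KO livers at 5 months and overlapped at 2 months. Its difference was 1.98 ± 0.385 (SE, adjusted p = 0.0453), a call made in 2 of the 12 leave-one-out fits (highest adjusted p = 0.13, without wild-type 5-month replicate 2). Esrrg, an orphan nuclear receptor, had 7.37, 8.76 and 6.3 CPM in wild-type and 4.56, 6.39 and 6.07 CPM in PPARγ-KO livers at 2 months, and 2.49, 1.58 and 2.14 CPM in wild-type and 4.06, 5.18 and 6.25 CPM in PPARγ-KO livers at 5 months, with a difference of 1.71 ± 0.307 (SE, adjusted p = 0.0112) and no overlap at 5 months. Robo1, a guidance receptor, had a difference of 1.67 ± 0.339 (SE, adjusted p = 0.0453), a call made in 3 of the 12 leave-one-out fits (highest adjusted p = 0.125, without wild-type 5-month replicate 2). The transporter Abcc12 had 2.70 ± 0.613 (SE, adjusted p = 0.0375), a call made in 4 of the 12 leave-one-out fits (highest adjusted p = 0.122, without wild-type 2-month replicate 2). Rasl10b, a small GTPase at under 3 CPM in every library, had 3.24 ± 0.685 (SE, adjusted p = 0.0269), a call made in 7 of the 12 leave-one-out fits (highest adjusted p = 0.0934, without wild-type 2-month replicate 2).

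Collagen genes shared the sign of their differences without a call. All 21 tested collagen genes had a positive difference (median 0.31), with median ratios of -0.72 at 2 months and -0.31 at 5 months. Of the 21, 11 were called lower at 2 months and 4 at 5 months, where 4 others were called higher. The shares of all genes tested were 3.93%, 7.43% and 6.05%. None of the differences was called by edgeR, 5 had an unadjusted p below 0.05, and DESeq2 and limma-voom each called 1. Col1a1 and Col3a1, the fibrillar collagens of scar, had ratios of -1.29 and -0.96 and of -1.16 and -0.93 at 2 and 5 months. Collagen genes are long, with a median of 7833 bases, and with the offset for gene length their median was 0.27 and none was called.

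Over the 26 gene lists described, the lowest median differences were those of Kupffer cells (-1.36), B cells (-1.12) and T and NK cells (-1.04). The 10 hepatocyte markers had none called by edgeR, with 3 at an unadjusted p below 0.05, 1 called by DESeq2 and 3 by limma-voom, and a median difference of -0.23.

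**Figure D5:**
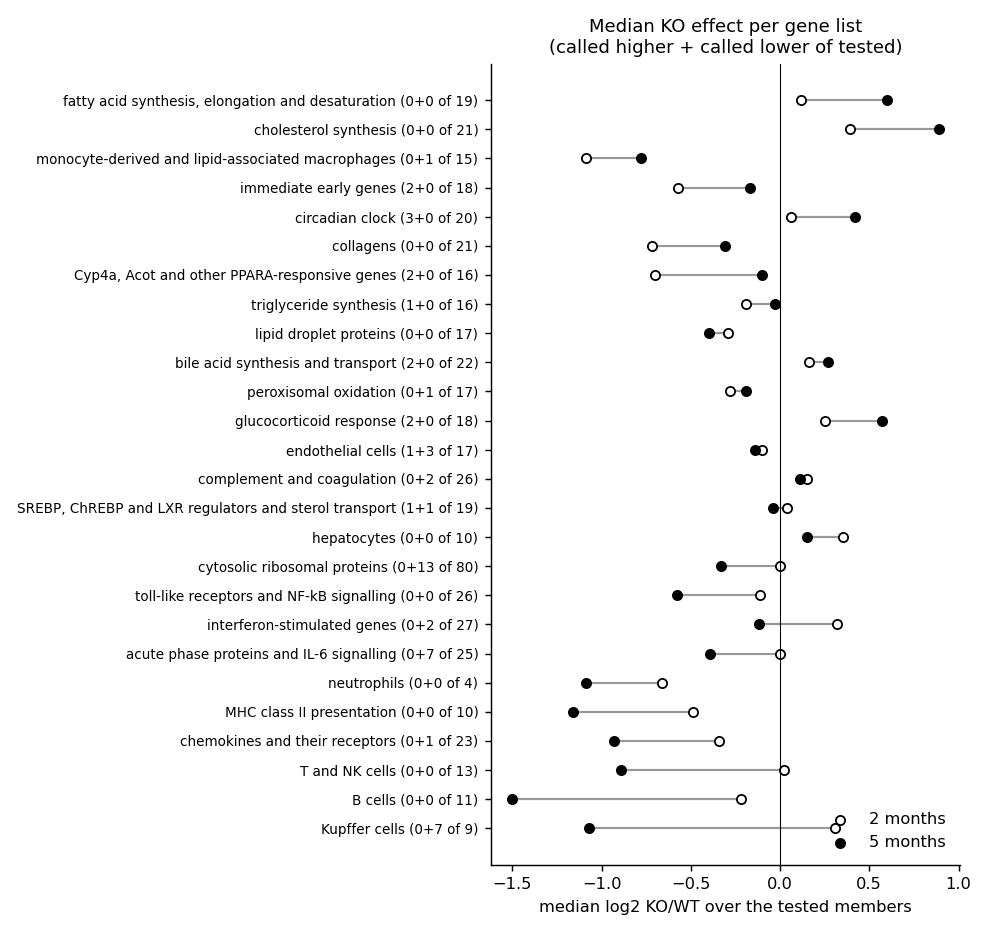
Median log2 ratio of PPARγ-KO over wild-type at 2 months (open symbols) and at 5 months (filled symbols) for each of 26 gene lists, with a line at 0. For Kupffer cells the median passes from 0.31 to -1.07, for cholesterol synthesis it runs from 0.39 to 0.89, and for collagens from -0.72 to -0.31.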

How the data were processed

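Total RNA of whole liver (TRIzol, Illumina NovaSeq) was analysed in 12 libraries. The authors deposited raw counts of reads per gene, not normalized, with gene identifiers, coordinates and lengths. The study's methods name STAR and the submitters' processing notes HISAT2, both with mm10, and the counter, annotation and strand setting are not given in the sources used here. Gene names stored as dates (27) were restored by identifier. The deposited tables of the 2 times carry different years in those dates, and whether the libraries of the 2 times were prepared apart is not known. The change with time in either genotype therefore cannot be told apart from a batch, from age or from time since the viral injection.

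Genes were filtered with filterByExpr, scaled by TMM and fitted with edgeR 4.0.16 (R 4.3.3, limma 3.58.1) by robust quasi-likelihood with 4 group means. The contrast was tested two-sided and adjusted by Benjamini-Hochberg over 15127 genes, with a threshold of 0.05. SE is the log2 value divided by the root of F. CPM are counts scaled by edgeR's cpm function to the TMM-adjusted library total. DESeq2 1.42.0, limma-voom, other scalings, filters and thresholds, replicate blocks and fits without each library were alternatives. On simulated data the test recovered 191 of 200 genes changed by a log2 of 1.5 with 4.02% false calls, and DESeq2 197 with 8.8%. The simulated libraries were independent, without a knockout effect at 2 months, and genes of low level were left unchanged. The simulation therefore does not show how the test does with smaller differences, or with paired, outlying or unusually close replicates. Replicate numbers were checked for pairing by the correlation of deviations from group means, which was above 0.1 for each pair at 2 months and for none at 5 months.

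The comparison, the gene lists (63, of which 26 are described) and the motifs were chosen with earlier results of these data known. The genes named are Pparg, the 10 highest and 10 lowest called differences among genes with a mean of at least 1 CPM in a group, the 10 genes of smallest p among those called at both times with opposite signs, and up to 4 members of smallest p per described list, some of which are not reported here. Others were named as members a list is known by or after their values were seen, among them Hsd17b6, the transcripts Gm23935 and Lars2, and the other genes that reversed at both times. Promoters were taken from RefSeq (GRCm38.p6).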

Additional observations from a re-analysis of the deposited data

Results flagged for a closer look

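Each of the 70 named genes with a called difference was selected for a closer look because the knockout effect at 5 months differed from that at 2 months by a test of the difference itself, by quasi-likelihood in edgeR with adjusted p below 0.05. The values are log2 differences, 5 minus 2 months, and the adjusted p-values, the levels in each library and the libraries that calls rest on stand with the genes in the report. Of the 70, 34 were called in each of the 12 fits that left out 1 library, and 33 in every alternative that could test them.

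Among Kupffer cell, other macrophage and monocyte genes the difference was -1.10 for Clec4f, -1.19 for Vsig4, -2.27 for Timd4, -1.67 for Cd163, -1.81 for Folr2, -1.04 for Cd5l, -0.92 for Csf1r, -0.86 for C1qa, -0.89 for Fcna, -2.27 for Cd300e, -3.09 for Acod1 and -1.13 for Fcgr1. Among chemokine, sinusoidal endothelial and endothelial genes the difference was -5.42 for Cxcl13, -0.77 for Clec4g, -0.54 for Dnase1l3, -0.58 for Fcgr2b and 1.05 for Flt4. Among acute phase, complement and interferon-stimulated genes the difference was -1.71 for Saa3, -0.70 for Hpx, -0.70 for Itih4, -0.46 for Il6st, -0.86 for C9, -0.51 for Mbl1, -0.75 for Serping1, -0.55 for Irf9 and -0.54 for Bst2. Among cytosolic ribosomal protein genes the difference was -0.57 for Rplp1, -0.57 for Rps15a, -0.57 for Rpl36a and -0.47 for Rps24. Among glucocorticoid, immediate early and clock genes the difference was 2.00 for Fkbp5, 1.28 for Dusp1, 0.82 for Junb, 2.79 for Ciart, 0.63 for Cry2 and 0.52 for Hlf. Among genes of sterol, fatty acid and bile acid metabolism the difference was -0.63 for Abcg1, 0.83 for Lpin3, 2.25 for Acot3, 1.24 for Acot4, -0.46 for Crot, 2.08 for Osbpl3, 1.3 for Cyp8b1, 0.49 for Abcc2, 0.50 for Pank3, -1.96 for Hsd17b6 and 0.62 for Pparg. Among further genes that reversed with calls at both times the difference was 1.69 for Nt5e, 1.34 for Klf11, 0.90 for Tns1, 0.80 for Zfp36l2, 0.71 for Map3k5, 1.12 for Sbk1, -0.79 for Tifa, -0.80 for Zfpm1, -2.04 for Slc3a1, -1.40 for mt-Ty and 0.94 for Gm23935. Among the remaining genes the difference was 2.70 for Abcc12, 1.71 for Esrrg, -2.52 for Fam167a, -2.22 for Gm13522, -2.19 for Igfbp2, 1.02 for Lars2, -5.15 for Mup8, 3.24 for Rasl10b, 1.67 for Robo1, -5.66 for Slc15a2, -2.61 for Sult5a1 and 1.98 for Tfrc.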

How the results depend on the processing

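In every setting below, no gene of the 238 had the opposite sign where it was called. DESeq2 called 565 genes, 259 higher and 306 lower (382 with a change of sign, 151 growing and 32 fading, the order used below), limma-voom with sample weights 794 (351 higher, 443 lower, 492, 216 and 86), and edgeR without the filter on low counts 793 (357 higher, 436 lower, 496, 216 and 81). An adjusted p below 0.1 gave 519 (240 higher, 279 lower, 357, 139 and 23), and an unadjusted p below 0.05 with a 1.3-fold difference 1563 (782 higher, 781 lower, 1018, 376 and 169). DESeq2 size factors gave 236, a minimum of 10 counts 236 and library size alone 199, of which 3 fading. Offsets for gene length, added after the data were seen, gave 194, of which 3 fading. Wild-type 5-month replicates 2 and 3 summed, also added then, gave 106 (42 higher, 64 lower, 87 with a change of sign, 18 growing and 1 fading), and this lone pair was then 1 of 2 samples in its group. Replicate numbers paired the samples at 2 months (correlations of deviations 0.141 to 0.272) but not at 5 months (-0.183 to -0.0544). The replicate block at 2 months gave 375 (178 higher, 197 lower, 261 with a change of sign, 91 growing and 23 fading). Among the named genes it added Insig1 and Cd36 and removed Acot4, with the values given beside them, and changed no other call of a named gene. The replicate block at both times gave 258, of which 16 fading. With 1 library left out, 83 to 567 genes were called, 35 to 275 higher, 48 to 292 lower, 69 to 366 with a change of sign, 13 to 92 growing and 1 to 109 fading. The cause of these shifts was not tested, except that an alternative with another threshold or fewer samples differs by construction. Depth limits genes under about 1 CPM, such as Rasl10b and Cxcl13.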

Other observations

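Of the 63 gene lists, 25 had 1 or more called members and 38 had none, where 1.57% of all genes tested were called. Of the 25, 12 had a single called member, and some genes, such as Dusp1, are in more than 1 list. Whether the number of lists with a call exceeds that from the share over all genes was not tested. Among lists the report does not describe, the unfolded protein and integrated stress response had 19 of 21 differences below 0 and 1 of them called, with a median log2 difference of -0.32 and median ratios of PPARγ-KO over wild-type of 0.21 at 2 months and -0.11 at 5 months. Genes known to be higher in female than in male liver had 9 of 10 differences above 0 and none called by edgeR, with 2 at an unadjusted p below 0.05. Their median difference was 0.87, and their summed level was 126 to 143 CPM in wild-type and 246 to 342 CPM in PPARγ-KO livers at 5 months, against 127 to 376 CPM and 85.5 to 287 CPM at 2 months. The 22 HNF4A target genes were evenly split, 11 above and 11 below 0, with 1 called and a median of -0.02. Nuclear-encoded genes of the respiratory chain and ATP synthase, which are short like ribosomal protein genes, had 49 of 74 differences below 0, none called by edgeR, 11 at an unadjusted p below 0.05 and a median of -0.08.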
